A study of Mus musculus with 12 samples.

Results

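The glycolytic enzymes and the genes that cells switch on when oxygen is low were followed across 4 groups of primary mouse embryonic fibroblasts (MEFs), wildtype or lacking the retinoblastoma gene Rb1, with or without the DNA-crosslinking drug cisplatin. The list holds 35 genes in 3 sets, which are 16 glycolytic enzymes, 17 other targets of the hypoxia-inducible factor HIF, and 2 genes kept apart, Hif1a (the factor itself) and the lactate carrier Slc16a1. A gene was matched where the platform annotation maps a probe set to its symbol, current or former, and to no other gene. By this rule 32 of the 35 genes were found, of 12394 genes on the array with such a probe set, and 29 were tested. The sets contributed 11 tested enzymes, 16 tested HIF targets and both genes kept apart. Gpi1, Eno1 and Bnip3l had no probe set of their own. For Bnip3l, 3 probe sets named further genes as well. Gapdh was matched only to 3 control probe sets of the array, and 2 more probe sets named it together with further genes. Aldoc and Eno2 were too weak to be tested.

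Glycolysis turns glucose into pyruvate in the cytosol. Hexokinase traps glucose as glucose 6-phosphate, phosphofructokinase commits it to the pathway, the later enzymes harvest ATP and NADH, and lactate dehydrogenase regenerates NAD by making lactate, which monocarboxylate transporters carry across the membrane. When oxygen is present, prolyl hydroxylases mark HIF-1α for destruction. When oxygen is low, the factor persists, binds a short core motif in the DNA and turns on most glycolytic enzymes together with genes for blood vessel growth, collagen modification, removal of mitochondria and restraint of growth signalling. Rb1 encodes the retinoblastoma protein, which holds back E2F transcription factors and so entry into the cell cycle.

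The cells came from day 13.5 embryos and had reached passage 2, in high-glucose medium according to the labels. The groups were wildtype untreated, Rb null untreated, wildtype with 16 µM cisplatin for 24 h, and Rb null with the same dose and time, and the labels name no other allele or agent. Each group had 3 arrays. The design text describes 4 RNA samples, with 3 hybridizations of each. The spread behind every p-value may thus be technical, and a difference between groups cannot be told apart from a difference between cultures. The number of arrays limits the precision of every value. Arrays within a group correlated at r between 0.981 and 0.992 over the 13575 probe sets tested, and arrays of different groups at 0.806 to 0.952. The Rb1 signal averaged 459.7 ± 35.4 (SD, n = 3) in untreated wildtype and 382.9 ± 60.1 in cisplatin-treated wildtype arrays, against 94.0 ± 10.0 and 89.6 ± 14.4 in the corresponding Rb null arrays. Its probe set was not placed relative to the deletion, so this checks the labels only as far as the RNA it reads is lost. Untreated wildtype stood apart in its sex-linked RNA. The Xist signal was 132.2 ± 26.7 there and averaged between 2379 and 3443 elsewhere, while Eif2s3y, a gene of the Y chromosome, gave 478.1 ± 7.90 there and at most 17.8 on any other array. Every comparison that uses untreated wildtype therefore also sets cultures with Y-linked RNA against cultures with Xist RNA, and the 2 kinds of difference cannot be told apart. In RNA from whole cultures, fewer cells of a type and less RNA per cell cannot be told apart either.

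HIF binds DNA at a core motif of ACGTG or GCGTG, searched here on both strands. The windows searched run from 250 bases before to 50 after the annotated start, in RefSeq annotation of build GRCm38.p6. Stretches upstream of 8 genes whose RNA the results below turn on are shown because they let the members be compared at the motif that HIF binds. Each is read 5′ to 3′ on the strand of its gene, and capitals mark the letters of every motif copy on either strand. They are Ldha (chr7:46845647-46845786, plus strand), Hk2 (chr6:82774490-82774692, minus strand), Slc16a3 (chr11:120949028-120949066, plus strand), Bnip3 (chr7:138909525-138909635, minus strand), Egln3 (chr12:54204087-54204115, minus strand), Ddit4 (chr10:59951869-59951969, minus strand), Adm (chr7:110627555-110627619, plus strand) and P4ha2 (chr11:54100805-54100871, plus strand).
Ldha: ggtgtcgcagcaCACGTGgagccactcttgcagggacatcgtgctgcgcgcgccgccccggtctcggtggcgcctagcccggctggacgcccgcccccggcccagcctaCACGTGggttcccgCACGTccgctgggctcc
Hk2: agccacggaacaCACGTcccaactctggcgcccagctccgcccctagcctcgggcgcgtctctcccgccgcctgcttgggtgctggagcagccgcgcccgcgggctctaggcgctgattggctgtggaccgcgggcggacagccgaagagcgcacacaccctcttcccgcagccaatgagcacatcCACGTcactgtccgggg
Slc16a3: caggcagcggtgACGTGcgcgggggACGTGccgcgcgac
Bnip3: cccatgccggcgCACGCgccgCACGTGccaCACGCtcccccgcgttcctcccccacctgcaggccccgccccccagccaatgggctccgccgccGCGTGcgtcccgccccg
Egln3: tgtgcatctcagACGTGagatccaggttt
Ddit4: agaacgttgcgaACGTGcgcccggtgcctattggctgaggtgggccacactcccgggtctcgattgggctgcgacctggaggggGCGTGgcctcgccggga
Adm: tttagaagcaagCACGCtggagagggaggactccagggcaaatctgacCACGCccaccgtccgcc
P4ha2: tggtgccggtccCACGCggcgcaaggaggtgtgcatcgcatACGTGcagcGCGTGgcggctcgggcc
The palindrome CACGTG holds the core on both strands and counts for each. Ldha carried 5 copies of ACGTG, the most of these 8 stretches. Slc16a3 and Hk2 carried 2 copies each, Egln3 a single one, and Adm none, with 2 copies of GCGTG in its place. Across the list, ACGTG was found in 56.0% of the 50 member windows, against 19.6% of 32851 windows of all genes. Either motif was found in 82.0% of the member windows, against 43.8% of all windows. Of 33 member genes with a window, 25 held ACGTG and 30 held either motif, against 21.8% and 46.7% of 27025 genes. Ndrg1 and Bnip3l had no entry. These 8 genes include some that rose and some that fell with cisplatin, and a match describes letters only, not a bound site.

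A gene is called here when limma gave a Benjamini-Hochberg adjusted p under 0.05 over all 13575 probe sets tested and the difference was at least 1.5-fold. All differences are in log2(signal + 10.4), given with the standard error of limma. Of the 29 tested genes, 20 were called in at least 1 of 5 comparisons and 9 in none. The matching count over all genes was not made, so the 20 cannot be set against a background share. No glycolytic enzyme was called higher in any comparison, and Hk1, Hk2, Pfkm, Pfkp and Ldha were called lower in at least 1. The other HIF targets moved in both directions. With cisplatin in Rb null cells, for example, Egln3, Ddit4, Ndrg1 and Higd1a rose while Bnip3, Slc16a3, Adm and P4ha2 fell.

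In untreated cells, 3 genes were higher and 2 lower in Rb null than in wildtype, where 8.07% of all 7945 tested genes were higher and 5.08% lower. Under cisplatin, 6 were higher and 5 lower in Rb null cells, against 9.67% and 13.3% of all genes. In wildtype cells 5 rose and 8 fell with cisplatin, against 14.8% and 12.7% of all genes. In Rb null cells 5 rose and 9 fell, against 16.6% and 20.3%. The cisplatin response itself differed between the genotypes for 8 genes, 3 of them higher in Rb null cells and 5 lower, against 8.70% and 15.0% of all genes. The share of members was above that of all genes by the most for the 27.6% that fell in wildtype cells, the 20.7% that were higher in treated Rb null than treated wildtype cells and the 31.0% that fell in Rb null cells. In the other comparisons and directions it was nearer to the background share. It was 10.3% higher and 6.9% lower in untreated Rb null cells, and 17.2% lower in treated ones. Of the members 17.2% rose in wildtype and 17.2% in Rb null cells. The response was higher in Rb null cells for 10.3% and lower for 17.2%. With 29 genes these counts are small, and the members were chosen with earlier results of these data known.

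**Figure D1:**
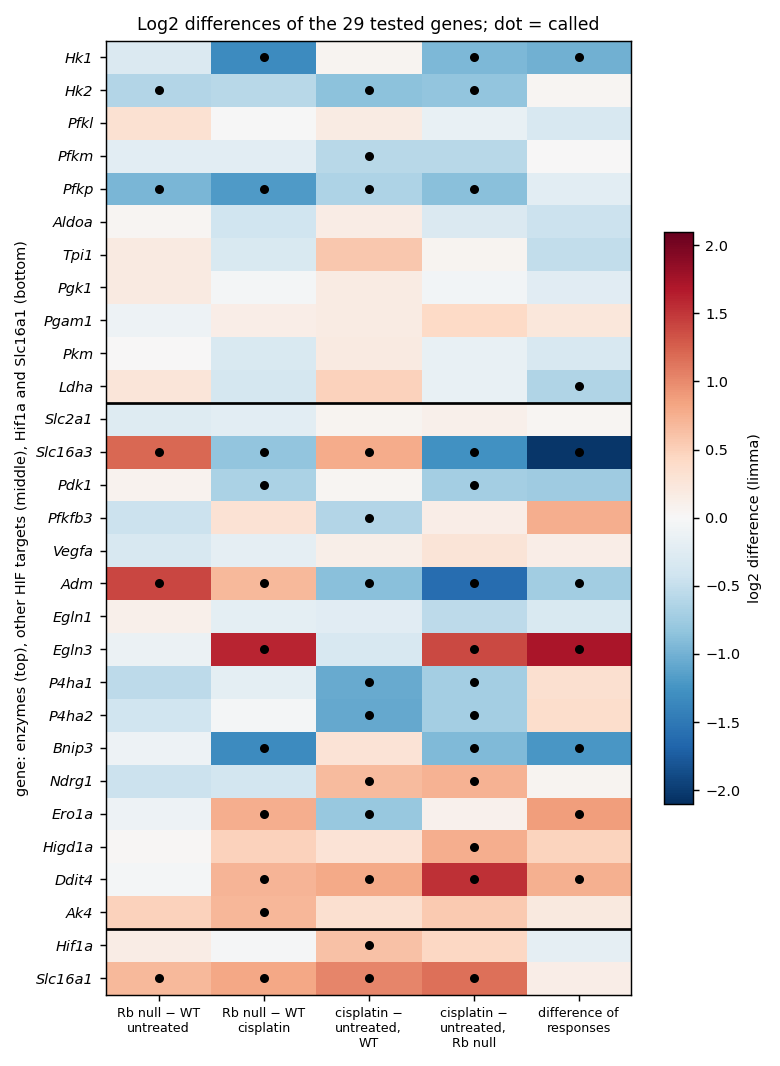
Log2 differences from limma for the 29 tested genes (rows, with enzymes at the top, other HIF targets in the middle and Hif1a and Slc16a1 at the bottom) in 5 comparisons (columns), in red where the first group was higher and blue where it was lower; dots mark called differences. Dots in the enzyme block lie on blue cells only, while those in the HIF target block lie on both colours, and Slc16a3 changes colour between columns.

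Hexokinases open the pathway, and Hk1 and Hk2 behaved differently. Hk2, the inducible hexokinase, fell with cisplatin in both genotypes. On its probe set 1422612_at the signals were 1289, 1232 and 1254 on untreated wildtype, 857, 760 and 828 on untreated Rb null, 728, 676 and 652 on treated wildtype, and 457, 443 and 463 on treated Rb null arrays. The 4 groups did not overlap, and treated Rb null arrays were lowest. Hk2 was lower in untreated Rb null than in untreated wildtype cells by a log2 difference of -0.62 ± 0.07 (adjusted p = 1.39e-05). It fell with cisplatin in wildtype (log2 -0.87 ± 0.07, adjusted p = 1.74e-07) and also in Rb null cells (log2 -0.83 ± 0.07, adjusted p = 1.87e-07). The difference of responses was 0.04 ± 0.10 (adjusted p = 0.793). Under cisplatin the genotypes differed by -0.58 ± 0.07, a 1.497-fold difference just under the minimum for a call (adjusted p = 1.65e-05). The call in untreated cells is close to that minimum too, and was lost without untreated Rb null array 2 (-0.57).

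Hk1, the broadly expressed hexokinase of the mitochondrial surface, was reduced in Rb null cells under cisplatin. Signals on 1437974_a_at were 1423, 1205 and 1337 on untreated wildtype, 1146, 1021 and 1038 on untreated Rb null, 1454, 1482 and 1220 on treated wildtype, and 650, 453 and 560 on treated Rb null arrays. All 3 treated Rb null arrays lay below every other array, while untreated and treated wildtype overlapped. Hk1 fell with cisplatin in Rb null cells (log2 -0.95 ± 0.12, adjusted p = 6.36e-06), and the wildtype difference was 0.07 ± 0.12 (adjusted p = 0.670). The responses differed (log2 -1.01 ± 0.17, adjusted p = 0.000315), and with cisplatin Hk1 was 2.49-fold lower in Rb null than in wildtype cells (adjusted p = 6.35e-07). The other Hk1 probe set, 1420901_a_at, was called for the same 3 differences. It gave a wildtype response of -0.56, just under the fold minimum, where the probe set above gave 0.07.

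**Figure D2:**
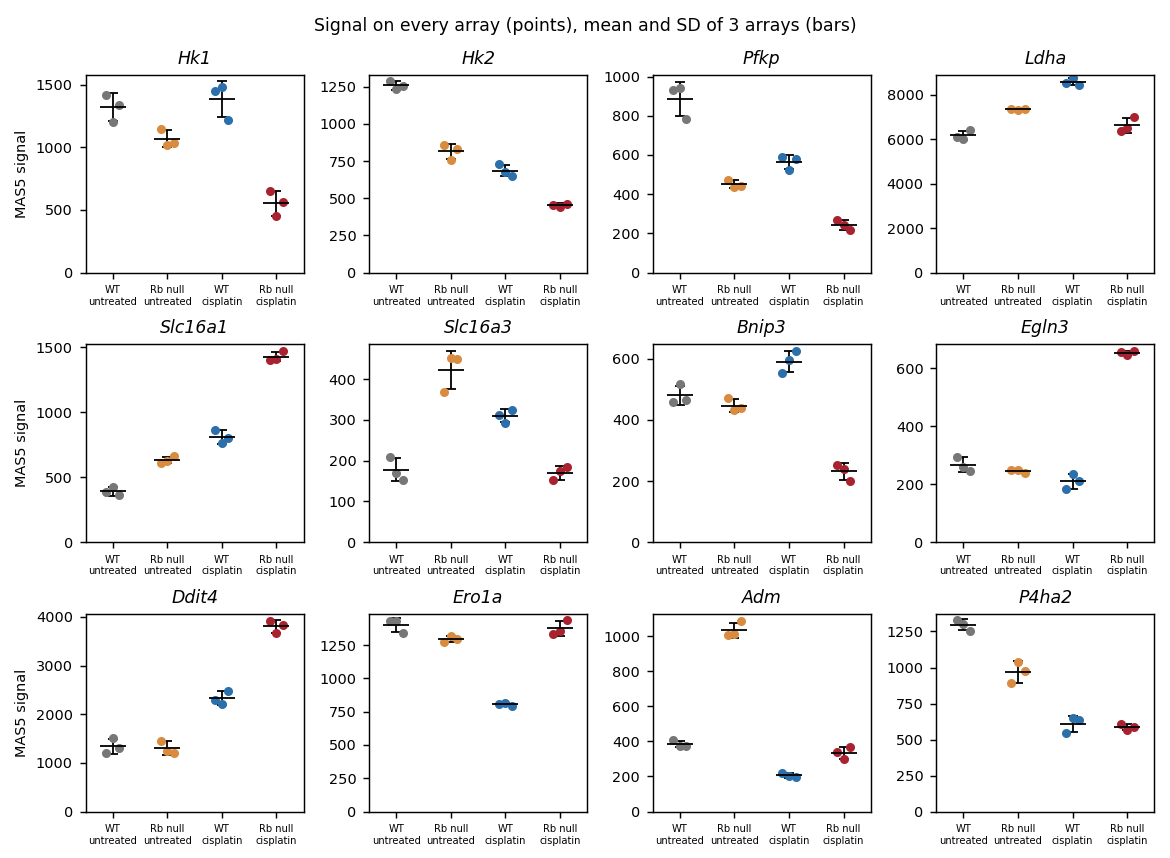
MAS5 signal (vertical axis, linear from 0, one scale per gene) of 12 genes on each of the 12 arrays (points) in the 4 groups, with the mean and SD of 3 arrays (bars). Egln3 and Ddit4 are highest and Hk1, Hk2, Pfkp and Bnip3 lowest in treated Rb null cells, Adm and Slc16a3 are highest in untreated Rb null cells, and Ero1a, the current symbol of Ero1l, is lowest in treated wildtype cells.

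Phosphofructokinase has 3 isoforms, named for liver, muscle and platelets, and the platelet form Pfkp had the widest range of levels among the 11 tested enzymes. Its signals on 1416069_at were 932, 940 and 786 on untreated wildtype, 473, 438 and 440 on untreated Rb null, 589, 522 and 580 on treated wildtype, and 268, 242 and 217 on treated Rb null arrays. None of the 4 groups overlapped with another. Pfkp was lower in Rb null cells without cisplatin (log2 -0.96 ± 0.10, adjusted p = 3.83e-06) and with it (log2 -1.19 ± 0.10, adjusted p = 3.24e-07). It fell with the drug in wildtype (log2 -0.64 ± 0.10, adjusted p = 7.69e-05) and also in Rb null cells (log2 -0.87 ± 0.10, adjusted p = 2.57e-06). On the main probe sets it was the only 1 of the 29 genes called lower in Rb null cells both without and with cisplatin. The difference of the responses was -0.23 ± 0.14 (adjusted p = 0.222), although the other Pfkp probe set, 1430634_a_at, was called at -0.69 ± 0.18.

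The muscle form Pfkm fell in wildtype cells (log2 -0.59 ± 0.09, adjusted p = 7.26e-05), from signals of 659 to 752 in untreated to 444 to 486 in treated arrays, which did not overlap. In Rb null cells the difference was -0.58 ± 0.09, at 1.498-fold just short of a call (adjusted p = 5.63e-05). The difference of responses was 0.01 ± 0.13 (adjusted p = 0.974). The wildtype call was lost without untreated wildtype array 3 (-0.54) or treated wildtype array c (-0.56). The liver form Pfkl was called nowhere, with mean signals between 1286 and 1608. Its largest difference was 0.32 ± 0.09, higher in untreated Rb null cells (adjusted p = 0.0160), below 1.5-fold.

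Of the tested enzymes on the list that act downstream of phosphofructokinase, only Ldha was called, in a single comparison. Aldolase Aldoa, phosphoglycerate kinase Pgk1, phosphoglycerate mutase Pgam1 and pyruvate kinase Pkm were called in none of the 5 comparisons, and their largest differences were -0.46, -0.24, 0.42 and -0.34. Under cisplatin, Aldoa was lower in Rb null cells (log2 -0.42 ± 0.09, adjusted p = 0.00149) and so was Pkm (log2 -0.33 ± 0.07, adjusted p = 0.00153), both below 1.5-fold. Pgk1 is X-linked, and its difference between untreated genotypes was 0.19 ± 0.08 (adjusted p = 0.0741), the comparison that also carried the Xist difference. All 4 Aldoa probe sets have the suffix that marks cross-hybridization with related sequences.

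Triose phosphate isomerase Tpi1 and lactate dehydrogenase A, Ldha, responded in a similar shape. Ldha signals on 1419737_a_at were 6100, 5994 and 6419 on untreated wildtype, 7366, 7315 and 7349 on untreated Rb null, 8536, 8773 and 8453 on treated wildtype, and 6353, 6514 and 7008 on treated Rb null arrays. Treated wildtype arrays were highest and did not overlap with any other group. The wildtype response was 0.48 ± 0.05 (adjusted p = 1.28e-06) and the Rb null response -0.15 ± 0.05 (adjusted p = 0.0152), neither reaching 1.5-fold. The difference between them was called, at -0.63 ± 0.07 (adjusted p = 9.66e-06). Tpi1 gave 0.57 ± 0.05 in wildtype (adjusted p = 3.45e-07, 1.485-fold) and 0.06 ± 0.05 in Rb null cells (adjusted p = 0.324), with a difference of -0.51 ± 0.07 (adjusted p = 9.66e-05, 1.424-fold). Its probe set 1435659_a_at was called at 0.76 ± 0.09 for the wildtype response and at -0.68 ± 0.12 for the difference, and 1452927_x_at for neither. Scaling decided some of these calls. With each array centred on its median the Ldha difference became -0.52 and lost its call, and with quantile normalization or centring the wildtype response of Tpi1 reached 0.60 and 0.62 and gained one.

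Gapdh, the oxidizing step of the pathway, was matched only to control probe sets and was not tested. On the 3′ one its signal averaged 9102 ± 539 in untreated wildtype, 8475 ± 144 in untreated Rb null, 9350 ± 361 in treated wildtype and 9447 ± 217 in treated Rb null arrays (SD, n = 3 each). The brain-type isozymes lay below the filter on low signal. For Aldoc the stronger of 2 probe sets had 123 to 224 in untreated wildtype and 50.9 to 102 on all other arrays. Eno2 had 133 to 219 in treated Rb null arrays and 41.3 to 107 on all others, so its treated Rb null arrays did not overlap with the rest, although no test was made.

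As a set, 0 of 11 enzymes were called higher in any of the 5 comparisons by limma, while 2, 2, 3, 3 and 2 were called lower, in the order untreated genotypes, treated genotypes, wildtype response, Rb null response and difference of responses. The lower calls are 18.2%, 18.2%, 27.3%, 27.3% and 18.2% of the enzymes, against 5.08%, 13.3%, 12.7%, 20.3% and 15.0% of all genes, and the share called higher among all genes was 8.07%, 9.67%, 14.8%, 16.6% and 8.70%. With 11 enzymes these counts are small, and several are near the background. At an unadjusted p under 0.05, 4, 0, 5, 1 and 1 enzymes were higher and 4, 8, 3, 6 and 7 lower. Quantile normalization and median centring each added 1 higher call, Tpi1 in the wildtype response. Quantile normalization also added a lower call of Tpi1 in the difference of responses (-0.60), while median centring took away the lower calls of Pfkm in the wildtype response and of Ldha in the difference. The median enzyme differed by 0.01, -0.33, 0.17, -0.16 and -0.33, where the median over all genes differed by -0.01, -0.05, 0.06, -0.02 and -0.07. The median enzyme in untreated cells turned to -0.02 with median centring, and the Rb null response shrank to -0.01. Under both scalings the treated genotypes (-0.40 and -0.26) and the difference of responses (-0.42 and -0.23) stayed below 0.

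**Figure D3:**
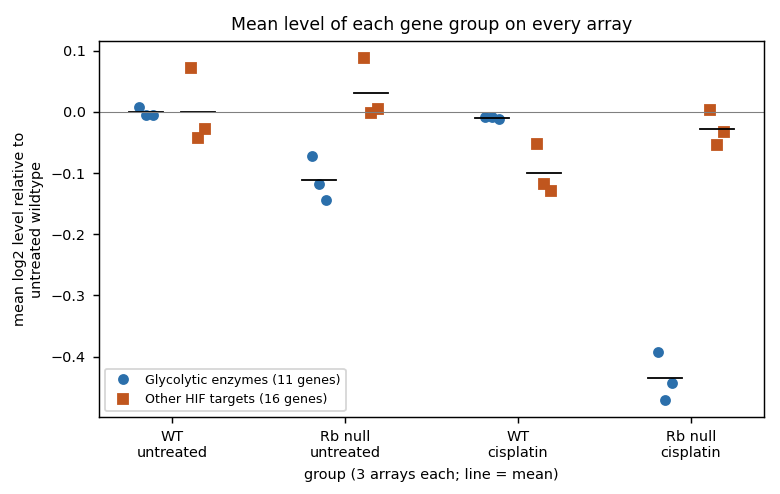
Mean log2 level of the 11 tested enzymes (circles) and the 16 tested other HIF targets (squares) on each array, relative to the mean of the untreated wildtype arrays, with the mean of 3 arrays as a line. The 3 treated Rb null arrays lie at -0.47 to -0.39 for the enzymes, below every other array, and at -0.05 to 0.00 for the HIF targets, within the range of the other groups.

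Read array by array, the mean of the enzymes lay within 0.01 of the untreated wildtype mean on all untreated wildtype arrays, at -0.14 to -0.07 on untreated Rb null, at -0.01 on treated wildtype, and at -0.47 to -0.39 on treated Rb null arrays. The mean of the other HIF targets was -0.04 to 0.07, 0.00 to 0.09, -0.13 to -0.05 and -0.05 to 0.00 in the same order. For the mean of the enzymes the treated Rb null arrays stood below all others, and for the HIF targets they did not. The enzymes were also split into 4 genes, Hk1, Hk2, Pfkm and Pfkp, picked out after their values were seen, and the other 7. A low mean of the 4 was thus fixed by the choice. Their mean was -1.41 to -1.21 on treated Rb null arrays, and that of the other 7 enzymes was 0.07 to 0.09 there, above all untreated wildtype arrays (-0.02 to 0.02) and below all treated wildtype arrays (0.24 to 0.31). The medians of the HIF targets were -0.11, -0.12, 0.05, 0.09 and 0.17 in the 5 comparisons. Their calls ran 2, 5, 3, 4 and 3 higher and 0, 3, 5, 6 and 3 lower. These are 12.5%, 31.2% and 18.8% higher in the first 3 comparisons, 4 of 16 in the Rb null response and 18.8% in the difference, and 0.0%, 18.8%, 31.2%, 37.5% and 18.8% lower, against the shares of all genes given for the enzymes. With 0 called lower in untreated cells, 4 were lower there at an unadjusted p under 0.05. No test was made of the difference between the 2 sets.

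Markers of cell types moved between the same groups. The summed signal of 8 fibroblast markers ranged from 59690 to 63500 on untreated wildtype, 57120 to 58980 on untreated Rb null, 46230 to 48290 on treated wildtype and 35950 to 36950 on treated Rb null arrays. That of 12 macrophage and leukocyte markers ranged from 5367 to 5732, 7266 to 7661, 11200 to 11850 and 5903 to 6190 in the same order. In the comparison of treated genotypes, Hk1, Pfkp, Slc16a3, Pdk1 and Bnip3 were lower in Rb null cells and 6 members were higher. There, 5 of 8 fibroblast and 9 of 12 macrophage and leukocyte markers were called lower, against 13.3% of all genes. In the difference of responses, the counts were 5 and 9 again, against 15.0% of all genes. None of the markers of either list was at 0 on every array. Skeletal muscle markers summed to 3636 to 3790 and 2133 to 2186 on untreated wildtype and Rb null arrays and 784 to 953 and 715 to 861 on treated ones. The sums of neural markers were 3874 to 4231, 1940 to 2319, 1146 to 1515 and 1640 to 2288, and those of chondrocyte and bone markers 2111 to 2544, 4770 to 5238, 5567 to 5706 and 4003 to 4296. The 5 endothelial markers summed to at most 520.3 and the 4 epithelial ones to at most 779.8 on any array. The part of these cell types in the differences of the members was not tested. As a sign of RNA quality, the ratio of 3′ to 5′ signal ranged from 0.759 to 0.881 for Gapdh and from 1.10 to 1.32 for actin over the 12 arrays.

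Carriers bring glucose in and lactate out. Slc2a1, which encodes the glucose carrier GLUT1, was called in no comparison on its main probe set, where the arrays of all groups overlapped between 1133 and 2146. Its probe set 1426599_a_at was lower in treated Rb null than treated wildtype cells (log2 -0.66 ± 0.12). The third, 1426600_at, was not called there, but its treated arrays did not overlap. They gave 896.2 to 938.3 in Rb null and 1293.5 to 1493.8 in wildtype cells.

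Slc16a1 encodes the monocarboxylate carrier MCT1 and rose in both genotypes. Signals on 1415802_at were 387, 427 and 358 on untreated wildtype, 611, 622 and 660 on untreated Rb null, 862, 760 and 799 on treated wildtype, and 1400, 1411 and 1468 on treated Rb null arrays. The groups did not overlap and stood in that order. Cisplatin was followed by a rise of 1.03 ± 0.08 in wildtype (adjusted p = 7.87e-08) and 1.16 ± 0.08 in Rb null cells (adjusted p = 1.33e-08). Rb null cells were higher by 0.68 ± 0.08 without the drug (adjusted p = 1.53e-05) and by 0.82 ± 0.08 with it (adjusted p = 1.73e-06). The difference of responses was 0.14 ± 0.12 (adjusted p = 0.378).

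Slc16a3 encodes MCT4, the lactate exporter of glycolytic cells, and it turned direction between the genotypes. On 1449005_at the signals were 208, 170 and 153 on untreated wildtype, 368, 452 and 448 on untreated Rb null, 312, 293 and 325 on treated wildtype, and 151, 174 and 184 on treated Rb null arrays. Untreated Rb null arrays were highest, followed by treated wildtype, and the 2 low groups overlapped. It rose with cisplatin in wildtype by 0.78 ± 0.13 (adjusted p = 0.000133) and fell in Rb null cells (log2 -1.26 ± 0.13, adjusted p = 7.73e-07). The responses differed by -2.05 ± 0.18, a 4.13-fold ratio (adjusted p = 1.17e-06). Rb null cells were 2.32-fold higher than wildtype without the drug (adjusted p = 4.75e-06) and 1.78-fold lower with it (adjusted p = 9.65e-05). On the main probe sets of the 29 genes it was the only 1 with opposite calls, in either pair of comparisons.

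Pdk1 and Pfkfb3, which steer the flux of glucose carbon, had low signals that varied between arrays. Pdk1 encodes a kinase that blocks pyruvate dehydrogenase. Its signals were 194, 162 and 92.1 on untreated wildtype, 179, 142 and 138 on untreated Rb null, 156, 170 and 121 on treated wildtype, and 86.1, 103 and 79.6 on treated Rb null arrays. The treated Rb null arrays were below those of treated wildtype and of untreated Rb null, but overlapped with untreated wildtype. Pdk1 fell with cisplatin in Rb null cells (log2 -0.71 ± 0.23, adjusted p = 0.0139) and was lower there than in treated wildtype (log2 -0.67 ± 0.23, adjusted p = 0.0242). The difference of the responses was -0.75 ± 0.32 (adjusted p = 0.0831). These calls were not firm. The first was lost without untreated Rb null array 1 (adjusted p = 0.0559), and the other without treated Rb null array a or c, or treated wildtype array a or b (adjusted p = 0.0579 to 0.0888). The difference was called without untreated wildtype array 1 (-0.96, adjusted p = 0.0302).

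Pfkfb3 makes the fructose 2,6-bisphosphate that activates phosphofructokinase. Its main probe set gave 192, 108 and 186 in untreated and 133, 81.3 and 88.6 in treated wildtype arrays, which overlapped. The called fall of -0.62 ± 0.22 (adjusted p = 0.0295) was lost without untreated wildtype array 1 or 3, or treated wildtype array b or c (adjusted p = 0.0906 to 0.121). The other probe set, 1416432_at, was called lower in Rb null cells without (-0.75 ± 0.20) and with cisplatin (-0.97 ± 0.20), and fell with the drug in Rb null cells (-0.72 ± 0.20), where the main one gave -0.46, 0.30 and 0.14. For the wildtype response it gave -0.50 ± 0.20 (adjusted p = 0.0489, below 1.5-fold). The 2 probe sets thus had the same sign for the wildtype response and the untreated genotypes, and opposite signs for the treated genotypes and the Rb null response.

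Among the genes of the oxygen-sensing loop, a rise was called for Hif1a in wildtype cells and for Egln3 in Rb null cells. Hif1a signals on 1427418_a_at were 1896, 2355 and 2175 in untreated and 2920, 3372 and 3598 in treated wildtype arrays, and 2408, 2335 and 2387 in untreated and 3252, 2964 and 3433 in treated Rb null arrays. Treated arrays of either genotype lay above all untreated arrays. The rise was 0.62 ± 0.09 in wildtype (adjusted p = 3.79e-05) and the Rb null difference 0.43 ± 0.09 (adjusted p = 0.000658), below 1.5-fold, and the difference of responses was -0.19 ± 0.13 (adjusted p = 0.266). The wildtype call was lost without untreated wildtype array 1 (0.54) or treated wildtype array c (0.55). A weaker Hif1a probe set, 1416035_at, gave -0.39 for the Rb null response and was called at -0.91 ± 0.14 for the difference, so the probe sets do not share a direction in Rb null cells. Protein levels of HIF-1α, which oxygen controls mostly after transcription, were not measured.

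Egln3 encodes PHD3, the prolyl hydroxylase most strongly induced by HIF. Its signals on 1418649_at were 295, 258 and 246 on untreated wildtype, 247, 247 and 239 on untreated Rb null, 183, 235 and 211 on treated wildtype, and 655, 646 and 658 on treated Rb null arrays. The treated Rb null arrays stood above all other arrays. Egln3 rose by 1.38 ± 0.10 with cisplatin in Rb null cells (adjusted p = 3.22e-08), where the wildtype difference was -0.34 ± 0.10 (adjusted p = 0.0140, below 1.5-fold). The responses differed by 1.72 ± 0.15 (adjusted p = 8.21e-07), and under cisplatin Rb null cells were 3.03-fold higher (adjusted p = 2.72e-08). Its other probe set was called for the same 3 differences. Egln1, which encodes the main oxygen sensor PHD2, was called nowhere. Its Rb null response was -0.55 ± 0.10 (adjusted p = 0.000264, 1.463-fold), and it was called without untreated Rb null array 2 (-0.59) or treated Rb null array b (-0.62). Its other tested probe set, 1451110_at, gave 0.20 ± 0.23 for the same response (adjusted p = 0.447).

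Bnip3 and Ddit4, HIF targets of mitochondrial clearance and of growth restraint, went opposite ways in Rb null cells. Bnip3, a mitochondrial outer membrane protein that promotes removal of mitochondria, had signals on 1422470_at of 460, 517 and 464 on untreated wildtype, 471, 432 and 438 on untreated Rb null, 554, 595 and 625 on treated wildtype, and 254, 241 and 200 on treated Rb null arrays. Treated wildtype arrays were highest and treated Rb null arrays lowest, each without overlap. Bnip3 fell in Rb null cells (log2 -0.92 ± 0.10, adjusted p = 1.41e-06), and its wildtype difference was 0.30 ± 0.10 (adjusted p = 0.0218, below 1.5-fold). The difference of responses was called, at -1.22 ± 0.14 (adjusted p = 1.43e-05). Treated Rb null cells were 2.50-fold lower than treated wildtype cells (adjusted p = 1.22e-07).

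Ddit4 encodes REDD1, an inhibitor of mTORC1 that p53 and stress also induce. Signals on 1428306_at were 1198, 1506 and 1313 on untreated wildtype, 1459, 1253 and 1202 on untreated Rb null, 2285, 2207 and 2486 on treated wildtype, and 3911, 3663 and 3832 on treated Rb null arrays. The untreated groups overlapped, treated wildtype lay above them and treated Rb null above all. Ddit4 rose by 0.80 ± 0.09 in wildtype (adjusted p = 3.42e-06) and by 1.54 ± 0.09 in Rb null cells (adjusted p = 1.94e-09). The rise was larger in Rb null cells by 0.74 ± 0.13 (adjusted p = 0.000416). With the drug Ddit4 was higher in Rb null cells by 0.71 ± 0.09 (adjusted p = 1.71e-05), and without it the difference was -0.04 ± 0.09 (adjusted p = 0.804).

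Ndrg1, a stress and hypoxia marker, rose in both genotypes. Its signals were 478, 582 and 558 in untreated and 854, 887 and 840 in treated wildtype arrays, and 376, 405 and 389 in untreated and 727, 567 and 676 in treated Rb null arrays. Treated arrays lay above untreated ones within each genotype. The rise was 0.67 ± 0.10 in wildtype (adjusted p = 5.20e-05) and 0.73 ± 0.10 in Rb null cells (adjusted p = 1.58e-05), and all 5 of its probe sets were called for the Rb null rise. The difference of responses was 0.06 ± 0.14 (adjusted p = 0.773).

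Higd1a, a mitochondrial protein linked to respiratory complexes, rose in Rb null cells by 0.76 ± 0.07 (adjusted p = 3.10e-07), from signals of 1071 to 1231 in untreated to 1902 to 1988 in treated arrays. Its wildtype difference was 0.29 ± 0.07 (adjusted p = 0.00286) and the responses differed by 0.47 ± 0.10 (adjusted p = 0.00236), both below 1.5-fold. The weaker probe set 1416481_s_at was called for a difference of 1.89 ± 0.24. It was also called lower in untreated Rb null than untreated wildtype cells (-0.59) and higher under cisplatin (1.29). The main one gave 0.03 and 0.49 there, neither of them called. Ak4, a mitochondrial adenylate kinase, was higher in treated Rb null (290 to 341) than in treated wildtype arrays (176 to 212), a log2 difference of 0.69 ± 0.17 (adjusted p = 0.00294). Its Rb null response was 0.54 ± 0.17 (adjusted p = 0.00996, 1.457-fold) and became a call with quantile normalization (0.67) or median centring (0.69), and also without untreated Rb null array 1 (0.63) or treated Rb null array b (0.61).

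Adm and the collagen hydroxylases P4ha1 and P4ha2 fell with cisplatin in both genotypes. Adm, the precursor of the vasodilator adrenomedullin, had signals on 1416077_at of 406, 374 and 374 on untreated wildtype, 1006, 1013 and 1083 on untreated Rb null, 219, 201 and 197 on treated wildtype, and 341, 300 and 365 on treated Rb null arrays. Untreated Rb null arrays were far above the others, and no groups overlapped. Rb null cells were higher by 1.40 ± 0.09 without the drug (adjusted p = 2.82e-08) and by 0.68 ± 0.09 with it (adjusted p = 3.11e-05). Adm fell in wildtype (log2 -0.87 ± 0.09, adjusted p = 1.70e-06) and also in Rb null cells (log2 -1.60 ± 0.09, adjusted p = 1.63e-09). The fall was larger in Rb null cells (log2 -0.73 ± 0.13, adjusted p = 0.000566).

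P4ha1 and P4ha2 encode the catalytic subunits of collagen prolyl 4-hydroxylase, which collagen needs for a stable triple helix. P4ha1 signals on 1452094_at were 1936, 1701 and 1559 in untreated and 809, 837 and 819 in treated wildtype arrays, and 1142, 1182 and 1207 in untreated and 691, 731 and 709 in treated Rb null arrays. P4ha2 signals on 1417149_at were 1330, 1304 and 1254 in untreated and 545, 646 and 634 in treated wildtype arrays, and 889, 1038 and 975 in untreated and 609, 569 and 586 in treated Rb null arrays. Treated arrays were below untreated ones for either gene and genotype, without overlap. P4ha1 fell in wildtype (log2 -1.06 ± 0.08, adjusted p = 3.45e-08) and also in Rb null cells (log2 -0.72 ± 0.08, adjusted p = 1.43e-06). P4ha2 fell likewise (log2 -1.08 ± 0.08, adjusted p = 6.12e-08, and -0.71 ± 0.08, adjusted p = 3.65e-06). The responses differed by 0.34 ± 0.11 for P4ha1 (adjusted p = 0.0251) and by 0.38 ± 0.12 for P4ha2 (adjusted p = 0.0221), both below 1.5-fold. The P4ha1 genotype difference in untreated cells, -0.55 ± 0.08, gained a call without untreated wildtype array 3 (-0.62). With median centring the Rb null responses became -0.57 and -0.56 and lost their calls. The fibrillar collagen genes Col1a1 and Col1a2, whose products these enzymes modify, fell beside them, to log2 differences of -1.10 and -0.82 in wildtype, and of -1.82 and -1.48 in Rb null cells. Col3a1, the third fibrillar collagen gene read here, fell in Rb null cells (-1.68), and its wildtype difference of -0.27 was not called on its main probe set, while the other probe set fell in wildtype by 1.39 on the log2 scale.

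Ero1l, the oxidase that drives disulfide bonds in the endoplasmic reticulum, is listed under its current symbol Ero1a in the plots. Its probe set 1449324_at had signals of 1434, 1430 and 1343 on untreated wildtype, 1276, 1320 and 1297 on untreated Rb null, 809, 816 and 796 on treated wildtype, and 1333, 1353 and 1439 on treated Rb null arrays. The treated wildtype arrays stood below all the others. Ero1l fell in wildtype (log2 -0.79 ± 0.06, adjusted p = 7.79e-08) and differed by 0.08 ± 0.06 in Rb null cells (adjusted p = 0.265), so that the responses differed by 0.87 ± 0.09 (adjusted p = 4.09e-06). The wildtype fall was not shared by all its probe sets. On 1419030_at the wildtype difference was -0.43, and on 1419029_at it was 0.43. In Rb null cells 1419029_at rose by 0.75 ± 0.10 (adjusted p = 1.66e-05), and the difference on 1419030_at was 0.12 ± 0.07. The difference of responses was 0.55 on 1419030_at and 0.32 on 1419029_at, neither of them called. Vegfa, the growth factor of blood vessels, was called in no comparison on its main probe set, with mean signals between 773 and 1056. Its probe set 1451959_a_at rose in Rb null cells by 0.73 ± 0.11 and was called for a difference of responses of 0.64 ± 0.16.

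Set side by side, the responses of the 2 genotypes fall into kinds. With cisplatin, 3 of the 29 genes (Ndrg1, Ddit4 and Slc16a1) were called higher in both genotypes and 5 (Hk2, Pfkp, Adm, P4ha1 and P4ha2) lower in both. Hif1a was called higher in wildtype alone, Egln3 and Higd1a higher in Rb null alone, Pfkm, Pfkfb3 and Ero1l lower in wildtype alone, and Hk1, Pdk1 and Bnip3 lower in Rb null alone. Such a call in 1 genotype is not by itself a difference between them. The difference was called for Hk1, Bnip3, Egln3 and Ero1l among these 9, and also for Ldha, Slc16a3, Adm and Ddit4. These 5 comparisons share their groups, and each of the differences of responses rests on all 4. Calls in both genotypes or in 1 alone were not counted over all genes, so these counts have no background share.

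**Figure D4:**
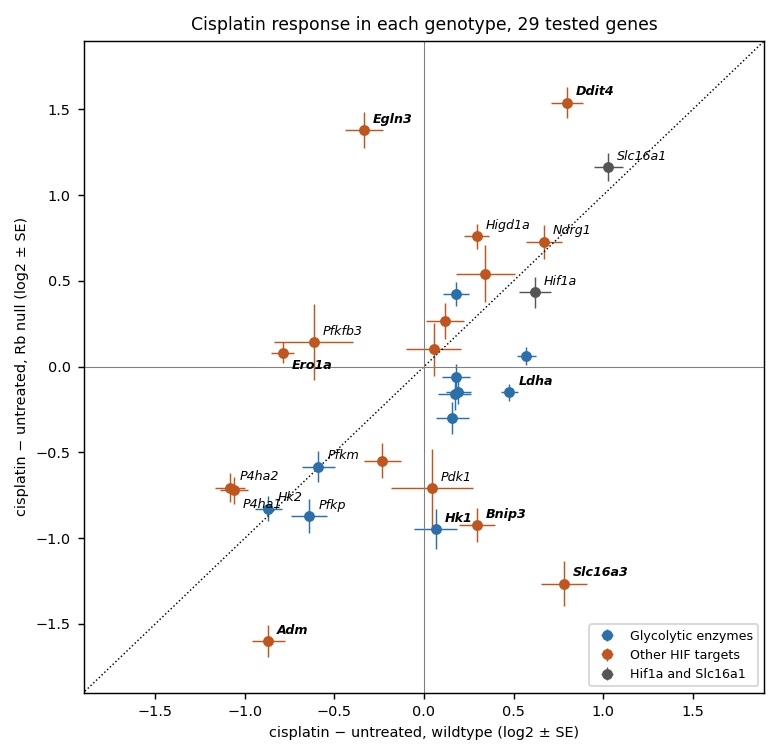
Log2 cisplatin response in wildtype (horizontal) and in Rb null cells (vertical), with the standard errors of limma, for the 29 tested genes. Points on the dotted line have equal responses, names are given where a response or the difference was called, and names in bold mark the 8 genes whose difference was called; Egln3 lies farthest above the line and Slc16a3 farthest below.

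Among the members, 17 had more than 1 tested probe set, which allowed a check of each reading within the same arrays. No gene had opposite calls on 2 of its probe sets in any comparison, but some values differed in sign. The wildtype response of Ero1l was -0.79 (called) on 1 probe set and 0.43 on another. For treated genotypes Pfkfb3 gave -0.97 (called) and 0.30, and for the Rb null response Hif1a gave -0.39 and 0.43. In the difference of responses, all probe sets were called for 2 of the 17 (Hk1 and Egln3), some for 6 (Pfkp, Tpi1, Vegfa, Ero1l, Higd1a and Hif1a) and none for 9. Slc16a3, Bnip3, Adm, Ddit4 and Ldha had a single probe set each, so their differences have no such check.

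**Figure D5:**
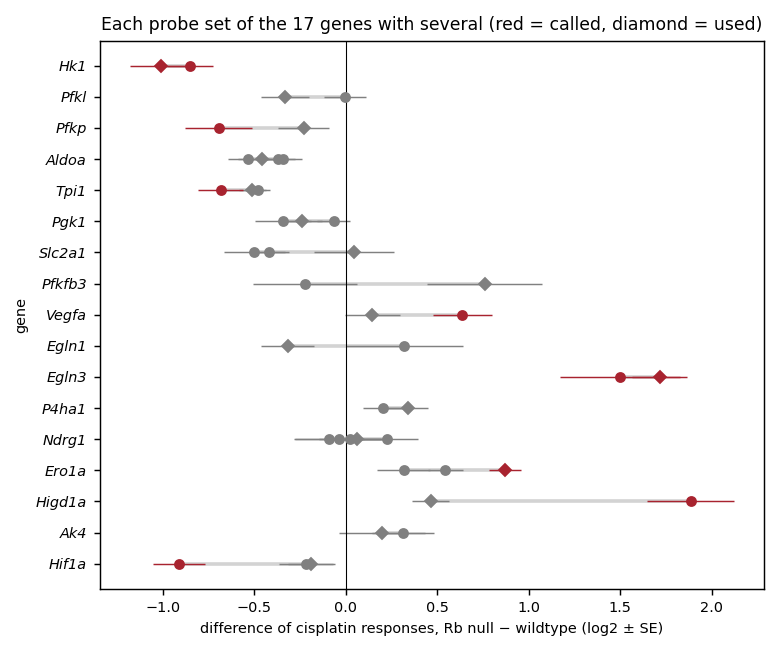
Difference of cisplatin responses (Rb null minus wildtype, log2 with the standard error of limma) on each tested probe set of the 17 genes with several. Red marks called probe sets and diamonds the one used for the gene; the Hk1 and Egln3 probe sets lie together, those of Higd1a and Hif1a lie apart, and Pfkfb3, Egln1, Slc2a1 and Ndrg1 have probe sets on both sides of 0.

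The wider pathway was read from a list of 40 genes of glucose side branches and pyruvate use, of which 26 were tested. Over the 5 comparisons, in the order used for the enzymes, 2, 3, 6, 5 and 0 were called higher and 1, 8, 3, 5 and 4 lower. As shares these are 7.69%, 11.5%, 23.1%, 19.2% and 0.0% higher and 3.85%, 30.8%, 11.5%, 19.2% and 15.4% lower, and most are near those of all genes (8.07%, 9.67%, 14.8%, 16.6% and 8.70% higher, 5.08%, 13.3%, 12.7%, 20.3% and 15.0% lower). With 0 called higher in the difference of responses, the number higher at an unadjusted p under 0.05 was 1. The median gene differed by -0.11, -0.22, 0.17, 0.02 and -0.16. Ldhb, the lactate dehydrogenase subunit B, rose with cisplatin in wildtype (1.32 ± 0.10) as in Rb null cells (1.85 ± 0.10), and so did Pdk4, another pyruvate dehydrogenase kinase (1.15 ± 0.15 and 1.48 ± 0.15). The glucose carrier gene Slc2a3 was lower in Rb null cells without (log2 -2.06 ± 0.20) and with the drug (-1.49 ± 0.20), and fell with cisplatin in wildtype (-1.18 ± 0.20) and in Rb null cells (-0.61 ± 0.20). The mitochondrial glycerol 3-phosphate dehydrogenase Gpd2, which passes cytosolic NADH electrons on, fell in Rb null cells (log2 -1.11 ± 0.07) with a difference of responses of -1.30 ± 0.10. Glycogen synthase Gys1 fell in both genotypes, wildtype (log2 -0.94 ± 0.23) as well as Rb null (-1.71 ± 0.23).

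Of 41 further genes of the HIF pathway, 28 were tested, and 1, 3, 5, 8 and 5 were called higher and 5, 2, 5, 3 and 0 lower. Against the same shares of all genes, these are 3.57%, 10.7%, 17.9%, 28.6% and 17.9% higher and 17.9%, 7.14%, 17.9%, 10.7% and 0.0% lower. With 0 called lower in the difference of responses, the number lower at an unadjusted p under 0.05 was 4. Heme oxygenase Hmox1 rose in Rb null cells by 1.88 ± 0.09, with a difference of responses of 1.49 ± 0.13, and the chemokine receptor gene Cxcr4 by 1.47 ± 0.14, with a difference of 1.33 ± 0.20. Kdelr3, a retrieval receptor of the endoplasmic reticulum, fell in wildtype (-0.64 ± 0.08) and rose in Rb null cells (0.63 ± 0.08). Angptl4, a lipase inhibitor, rose in both (1.68 ± 0.13 and 1.32 ± 0.13), while the receptor gene Flt1 (-2.19 ± 0.11 and -1.72 ± 0.11) and Cxcl12 (-1.97 ± 0.09 and -1.61 ± 0.09) fell in both. The isozymes of other tissues were mostly too weak, with 4 of 13 tested. Fbp1, a fructose bisphosphatase that opposes phosphofructokinase, rose in Rb null cells by 1.03 ± 0.20, and Eno3 was lower in treated Rb null than treated wildtype cells (log2 -0.64 ± 0.09).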

How the data were processed

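The data are 12 Affymetrix arrays of MEF RNA, 3 per group, which the design text describes as 3 hybridizations of each of 4 RNA samples. The authors deposited 1 signal intensity per probe set and array, made with MAS5 per the submitters' processing notes, and its version and scaling target are not given in the sources used here. Trimmed means were 500.1 or 500.2 on every array, so a common scaling had been applied. No detection calls were used here, so no background was set for single probe sets.

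Groups came from the sample labels. Signals were taken as log2 after adding 10.4, their 10th percentile, so fold changes of weak genes come out too small. From 22690 probe sets, 64 controls and the 40% with the lowest mean were dropped, leaving 13575. Group means over the 12 arrays were estimated by limma 3.58.1 under R 4.3.3 (eBayes with trend, 8 residual and 6.09 prior degrees of freedom), with two-sided tests and Benjamini-Hochberg adjustment over the 13575. A call needed an adjusted p under 0.05 and at least 1.5-fold. Each gene was read from 1 probe set, without a cross-hybridization suffix where possible and then with the highest mean, which gave 7945 genes. Of all probe sets, 20393 named a single gene in a platform annotation that can be old, 691 several and 1606 none. The model was tested on simulated data.

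Values on every array are given for most called members, the other members by range or difference. Of the called ones, Pfkm, Higd1a and Ak4 are given by range, and Pfkfb3 on wildtype arrays only. Of each further list, the called genes with the largest changes are named. Alternatives were other pseudocounts (1 and 45.8), filters, scalings, fold minimums, no variance trend, only the groups compared, all probe sets, each array left out, and a replicate block. All but the setting with all probe sets kept the probe set of a gene. Members and lists were chosen with earlier results of these data known. Bnip3l and Ndrg1 had no promoter entry.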

Additional observations from a re-analysis of the deposited data

Results flagged for a closer look

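The cisplatin response of 8 genes differed between the genotypes by limma's test of the difference itself (Rb null minus wildtype, log2, Benjamini-Hochberg adjusted over 13575 probe sets). The response was higher in Rb null cells for Egln3 (1.7154, adjusted p = 8.21e-07), Ero1l (0.8709, adjusted p = 4.09e-06) and Ddit4 (0.7433, adjusted p = 0.000416). Ddit4 rose in both genotypes, and the Ero1l value held on 1 of its 3 probe sets. The response was lower in Rb null cells for Slc16a3 (-2.0457, adjusted p = 1.17e-06), Bnip3 (-1.2196, adjusted p = 1.43e-05), Hk1 (-1.0118, adjusted p = 0.000315), Adm (-0.7283, adjusted p = 0.000566) and Ldha (-0.626, adjusted p = 9.66e-06). Slc16a3 was called in opposite directions in the genotypes, and Adm fell in both. Each of these differences uses the untreated wildtype arrays, which stood apart in Xist and Y-linked RNA.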

How the results depend on the processing

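Of the 51 calls over 145 pairs of member and comparison, 42 held under every alternative but the 2-fold minimum in which they were tested (6 of them, of Ak4 and Slc16a3, were not tested under the 60% filter), 6 were lost and 10 others gained on leaving out an array. These checks left out the setting with all probe sets. In the other settings no called value changed sign. Probe sets of the same gene did differ in sign in places, as for Ero1l. Without a fold minimum, calls rose from 3 to 7 higher and from 2 to 6 lower for untreated genotypes, from 5 to 12 lower for treated genotypes, from 5 to 11 higher for the wildtype response, from 5 to 9 higher for the Rb null response, and from 3 to 6 higher and 5 to 8 lower for the difference. With a 2-fold minimum they came to 0 lower in untreated genotypes, 1 higher and 3 lower in treated genotypes, 1 higher and 2 lower in the wildtype response, 3 higher and 2 lower in the Rb null response, and 1 higher and 3 lower in the difference. Over all 56 tested probe sets, 6 were lower in untreated genotypes, 11 lower in treated genotypes, 9 higher in the wildtype response, 13 higher in the Rb null response, and 6 higher and 9 lower in the difference, since more were counted. A filter at 60% left 3 lower in treated genotypes, since fewer genes were tested. On leaving out each array, the genes lower in untreated Rb null cells numbered 1 to 3, the 1 without Rb null array 2, where Hk2 lost its call, and the 3 without wildtype array 2 (Pfkfb3 gained) or 3 (P4ha1 gained). Median centring moved the median of all genes by 0.15 in the Rb null response and 0.10 in the difference, and the share of higher among all calls from 44.9% to 58.0% and from 36.7% to 51.3%. Under it Ldha, P4ha1, P4ha2, Pfkm, Pdk1 and Pfkfb3 each lost a call, and Tpi1, Ak4 and Pfkfb3 (the last for the difference of responses) gained one. The Pfkfb3 fall in wildtype also lost its call with no filter (adjusted p = 0.0532), quantile normalization or only the 2 groups compared (adjusted p = 0.0577). Adding the replicate block changed 1 call, the Pdk1 difference of responses (log2 -0.75, adjusted p = 0.0470), so that 6 in place of 5 were lower there. Same-numbered arrays of the 2 genotypes correlated in their deviations at r from -0.186 to 0.109 untreated and -0.021 to 0.084 treated. Arrays with unlike numbers gave -0.21 to 0.3 untreated and -0.098 to 0.094 treated. With 3 same-numbered pairs per treatment, these values cannot decide whether the numbers mark a shared culture or day. No paired analysis was possible for the cisplatin responses because treated and untreated arrays share no numbers. Low signals and wide spread limit what can be read for Pdk1 and Pfkfb3.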
